A study of Homo sapiens with 4 samples.

Results

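The nuclear-encoded subunits of the oxidative phosphorylation complexes were examined in SW1990 and PANC-1 cells, human pancreatic cancer cell lines that were left unirradiated or received 10 Gy of X-rays. SW1990 cells derive from a splenic metastasis of a pancreatic adenocarcinoma and PANC-1 cells from a pancreatic ductal carcinoma. The 4 groups were unirradiated SW1990 cells, SW1990 cells after 10 Gy, unirradiated PANC-1 cells and PANC-1 cells after 10 Gy, with 1 RNA sequencing library each. The lines were grown in different media, both with fetal bovine serum, so that line and medium cannot be told apart. The time between radiation and RNA extraction was not given in the sources used here.

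Genes were chosen by name, as genes of complexes I to V, with an FPKM (fragments scaled to the length of the transcript and the size of the library) of at least 1 in 1 library. Of 59263 rows in the table, 76 carried such a name and 67 reached that level. Of these 67, 64 are protein-coding subunits, made up of 37 of complex I, 4 of complex II, 9 of complex III, 13 of complex IV and 1 of complex V. The other 3 are the antisense transcripts NDUFA6-AS1 and NDUFV2-AS1 and the read-through transcript NDUFC2-KCTD14. The table lists most ATP synthase genes under older symbols (ATP5A1, ATP5B and so on) that the name rule does not catch. Those 17 ATP synthase rows were matched by gene identifier and are described beside the 67 genes, but are not counted among them.

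Oxidative phosphorylation runs in the inner mitochondrial membrane. Complexes I and II pass electrons from NADH and succinate to ubiquinone, complex III passes them on to cytochrome c, and complex IV passes them to oxygen. Complexes I, III and IV pump protons as they do so, and complex V, the ATP synthase, uses the returning protons to make ATP. Most subunits are encoded in the nucleus and imported, while a small set, among them the central subunits of complexes III and IV, is made from mitochondrial DNA. Many core subunits carry redox centres or catalytic sites, and accessory subunits surround the core.

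Nuclear genes for these complexes are known for promoter sites of a few transcription factors, among them NRF1 (nuclear respiratory factor 1), ETS family factors and YY1. The letters GCGCANGCG (NRF1), CCGGAAGT (ETS) and AAGATGGCG (YY1) were searched on both strands in RefSeq promoter windows (GRCh38.p14, 250 bases before to 50 after the start site), which were found for 65 of 80 coding subunits, ATP synthase included. The NRF1 letters occurred in 22 of these 65 promoters (33.8%) and in 8.05% of all 27305 promoters of the same length. The ETS letters occurred in 10 (15.4%, against 4.44% of all) and the YY1 letters in 8 (12.3%, against 1.85%). Matches to the NRF1 letters were found in 9 of 32 complex I promoters, 2 of 3 of complex II, 4 of 7 of complex III, 6 of 13 of complex V and 1 of 10 of complex IV. A match is a description of the letters and not evidence of binding in these cells. The 8 stretches that follow are examples from genes that differed between the lines. Matches in other such genes, among them COX5B and COX8A (ETS) and NDUFS6 (NRF1), are not shown. The matched letters are in capitals, and each is read 5′ to 3′ on the strand of the gene.
NDUFB4 (NRF1, chr3:120596167-120596195, + strand): agagcacttcGCGCATGCGcatatcaccg
SDHD (NRF1, chr11:112086753-112086781, + strand): agctgtgtttGCGCATGCGcgacgggtgt
UQCRFS1 (NRF1, chr19:29213163-29213191, - strand): cgcctcctcgCGCCTGCGCcgtggttgga
UQCRH (ETS, chr1:46303640-46303669, + strand): gagtgtgccgcACTTCCGGccagatcgccg
NDUFS1 (ETS, chr2:206159584-206159613, - strand): aggctggggccACTTCCGGcggaactgcgg
NDUFA7 (YY1, chr19:8321343-8321371, - strand): tcgcggacggAAGATGGCGtccgccaccc
SDHB (YY1, chr1:17054004-17054032, - strand): gtcaggagccAAGATGGCGgcggtggtcg
NDUFS4 (YY1, chr5:53560650-53560678, + strand): tgcctgcagcAAGATGGCGgcggtgtcaa
The NDUFB4 and SDHD stretches hold the same matched letters, although NDUFB4 was higher and SDHD lower in SW1990 cells. The same holds for NDUFA7, which was higher, beside SDHB and NDUFS4, which were lower. UQCRFS1, UQCRH and NDUFS1 hold the letters as their reverse complement. Among the 17 promoters found for subunits lower in SW1990 cells, 3 held the NRF1 letters, compared with 12 of 34 promoters of subunits that did not pass the test. The ETS letters ran the other way, with 5 of 17 against 3 of 34, and the YY1 letters were found in 2 of 17 against 4 of 34. These differences were not tested.

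The libraries held 17939210 and 18388969 counts in unirradiated and irradiated SW1990 cells, and 23451153 and 20154644 in PANC-1 cells. The 67 genes took 0.385% and 0.388% of the counts on genes in SW1990 cells and 0.425% and 0.456% in PANC-1 cells. Keratins KRT8, KRT18 and KRT19, structural proteins of epithelial cells, were high in every library, with KRT8 at an FPKM of 1352 and 1888 in SW1990 cells and 786 and 851 in PANC-1 cells, whereas the keratin KRT7 stayed between 5.02 and 6.35. EPCAM and CDH1, which encode epithelial adhesion proteins, were at 217 and 218 and at 140 and 239 FPKM in SW1990 cells. In PANC-1 cells EPCAM was at 2.28 and 2.81 FPKM and CDH1 at 0.673 and 1.21, from 108 and 113 counts and 59 and 65 counts, so both were detected at far lower levels than in SW1990 cells. VIM, which encodes the mesenchymal filament vimentin, had 17 and 0 counts in SW1990 cells and 82406 and 75166 in PANC-1 cells. ZEB1 (14 and 66 against 1394 and 1084 counts) and CDH2 (0 and 4 against 333 and 301) were also higher in PANC-1 cells, but FN1 of the same list had 0 and 25 against 8 and 9 and did not follow. Of the leukocyte markers CD3E had no count in any library, PTPRC had 2 counts in 1 library and CD14 stayed between 0.468 and 1.31 FPKM. The fibroblast markers COL1A2 and DCN were at 0 in every library, whereas COL1A1 was at 1.40 and 2.85 FPKM in SW1990 cells and 8.44 and 11.0 in PANC-1 cells. PDGFRB, of the same list, ran the other way, with 129, 63, 0 and 3 counts in unirradiated SW1990, irradiated SW1990, unirradiated PANC-1 and irradiated PANC-1 cells, and LUM had 2 counts in 1 library. Endothelial PECAM1, CDH5 and VWF had 52 counts or fewer in sum in any library, and the muscle markers summed to 0 counts in the PANC-1 libraries and to 12 and 51 in those of SW1990.

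Subunit mRNAs were found in every library at widely different levels. Across the 64 coding subunits the FPKM ran from 0.439 to 244 in unirradiated SW1990 cells and from 1.29 to 195 in unirradiated PANC-1 cells, and 63 of the 67 genes were above 1 in all 4 libraries. The lowest was NDUFA4L2, a paralogue of the complex IV subunit NDUFA4. The highest single value was that of COX6A1, an accessory subunit of complex IV, at 244, 245, 181 and 203 FPKM in unirradiated SW1990, irradiated SW1990, unirradiated PANC-1 and irradiated PANC-1 cells. Values given in groups of 4 follow this order throughout. UQCRH, the hinge subunit of complex III, held the highest single value of its complex, with 86.6, 83.4, 145 and 150 FPKM, and was higher in both PANC-1 libraries. SDHB, the iron-sulfur subunit of complex II, did so for its own, with 73.9, 73.6, 115 and 116 FPKM. NDUFS5, an accessory subunit, reached the highest single value of complex I, with 54.1, 55.2, 124 and 101 FPKM, of which the PANC-1 values were again the higher ones. ATP5B, the catalytic beta subunit of the ATP synthase (now ATP5F1B), had 244, 261, 284 and 308 FPKM.

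**Figure D1:**
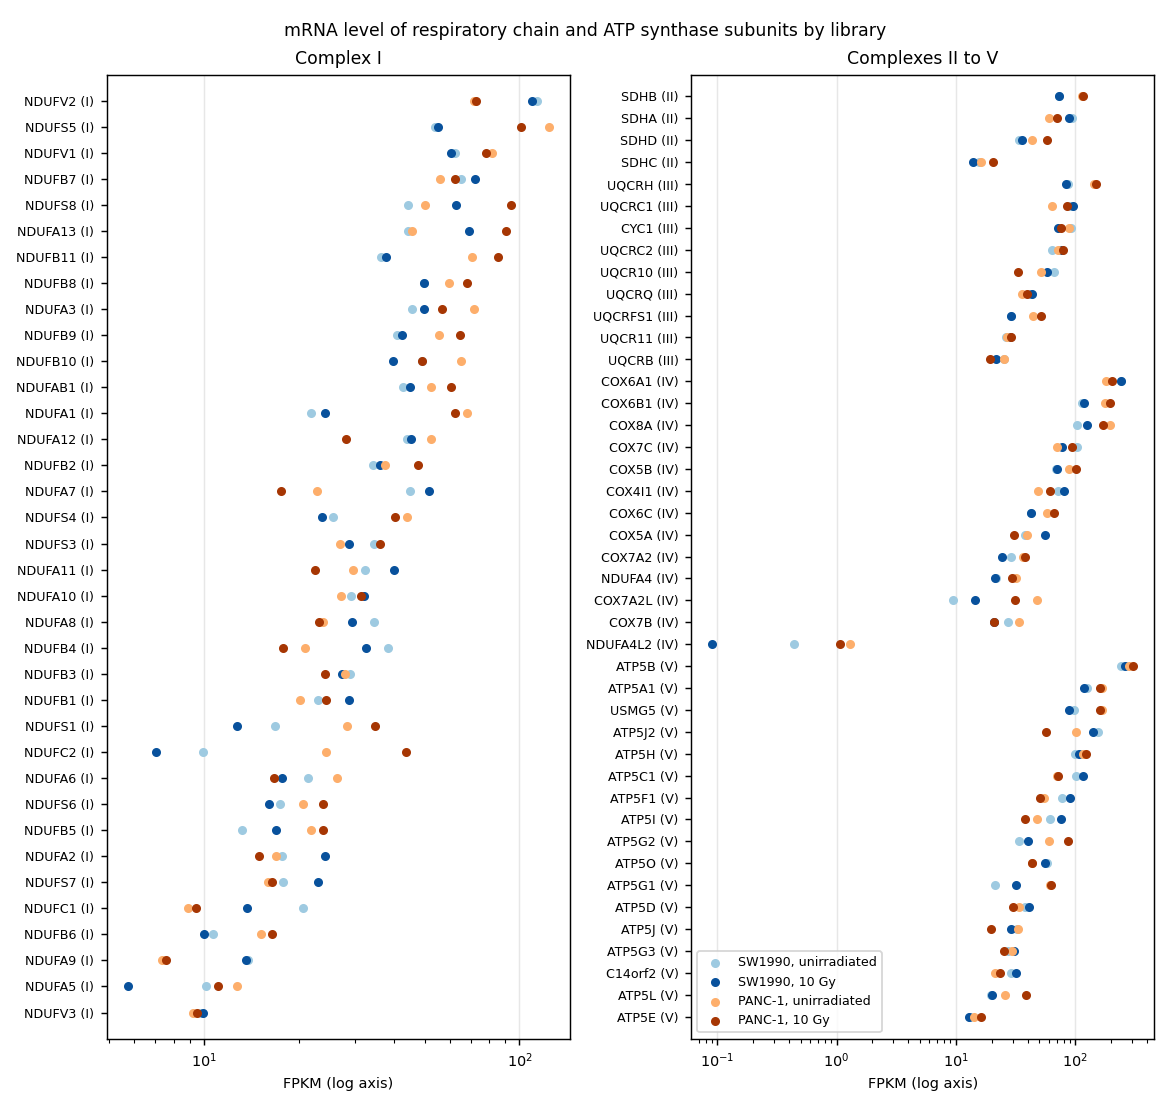
Level of the coding subunits (FPKM, log axis) in the 4 libraries, by complex (in parentheses), with 1 point per library and no replicates. COX6A1 and ATP5B lie at the upper end, between 181 and 308 in every library, and NDUFA4L2 at the lower end.

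Tissue-restricted paralogues were at or near 0. COX4I2, COX6A2, COX7A1, COX7B2 and COX8C, known from lung, muscle, heart or testis, had no count in any of the 4 libraries, which allows up to 3 counts in each library (counting error only). COX6B2 had 0, 0, 8 and 23 counts, so its counts were seen in PANC-1 cells alone. Their widely expressed partners were abundant, with COX4I1 at 71.7, 81.4, 48.4 and 61.2 FPKM, COX6B1 at 113, 120, 177 and 195, COX7A2 at 29.3, 24.6, 36.5 and 37.8, and COX8A at 104, 125, 195 and 171. NDUFA4 had 824, 764, 1575 and 1191 counts and NDUFA4L2 11, 2, 41 and 23, of which the irradiated SW1990 value lies under the floor of 3 counts. UQCRHL, a near-identical copy of UQCRH, had 26, 20, 28 and 36 counts. The other genes under an FPKM of 1 were NDUFB2-AS1, with 23 counts at most, and a second row named SDHD with 3 counts at most. The 110 pseudogene rows with subunit names held between 0.414 and 0.426 counts per 100 counts on the 67 genes, so that few counts were placed on these copies.

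Summed over each complex, the mRNA level was higher in PANC-1 than in SW1990 cells for all 5 complexes, whereas the mitochondrially encoded subunits were higher in SW1990 cells. Complex I summed to 1261, 1310, 1466 and 1564 FPKM, and the lowest PANC-1 value exceeded the highest SW1990 value. Complex II summed to 217, 213, 235 and 265 FPKM, and complex III to 521, 509, 556 and 564. Complex IV summed to 875, 899, 1009 and 1044 FPKM, and the 18 ATP synthase rows to 1239, 1296, 1338 and 1320. The 13 subunits encoded in mitochondrial DNA summed to 36179, 46944, 26552 and 24535 FPKM. A sum is carried by its most abundant genes and has no error with 1 library a group.

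**Figure D2:**
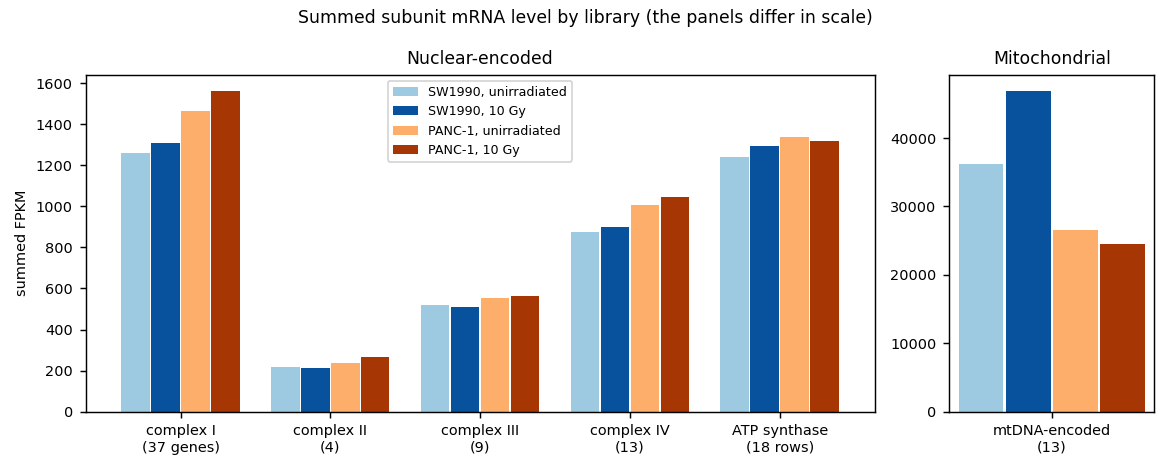
Summed FPKM of the coding subunits of each complex in the 4 libraries, and of the 13 mitochondrially encoded subunits in a panel of its own scale, with 1 bar per library and no error bars. The PANC-1 bars are the higher ones for complexes I to V, with complex I at 1466 and 1564 against 1261 and 1310, and the SW1990 bars are the higher ones for the mitochondrial genes.

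The first question was which subunit mRNAs changed after radiation in SW1990 cells. No gene passed a 2-fold change of the counts scaled by TMM (trimmed mean of M values), 0 of 65 with an FPKM of at least 1, while 9.53% of the 15731 genes at that level did, 4.9% upwards and 4.63% downwards. Among genes with an FPKM of at least 5, 0 of 63 passed, beside 344 of all 10149 genes at that level, a smaller share. At a limit of 1.5-fold, 3 of 65 passed, 2 upwards and 1 downwards, with 20.5% of all genes past it, 11% upwards and 9.55% downwards. The median log2 change was 0.07 (0.02 over all genes), with 40 genes above 0 (61.5%, against 53.4% of all genes) and 25 below. It was 0.01 with 35 genes above 0 when scaled by total counts, and 0.02 with 36 above 0 on FPKM values. With 1 library per condition there is no replicate check, and the intervals given in brackets are exact Clopper-Pearson intervals at 95% that cover counting error only. In bulk RNA, a change in RNA per cell and a change in which cells were alive cannot be told apart.

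COX7A2L, a factor that links complexes III and IV in supercomplexes, had the largest increase in SW1990 cells. Its counts went from 371 to 603, a log2 change of 0.72 [0.53 to 0.91]. NDUFA13, an accessory complex I subunit also known as GRIM-19, went from 691 to 1063 counts (0.64 [0.50 to 0.78]). Genes that overlap NDUFA13 on the same strand went down between these libraries, as given below. NDUFA2, another accessory subunit, had 281 and 414 counts (0.58 [0.36 to 0.80]), just under the limit of 1.5-fold. In the other direction, NDUFA5 had 303 and 195 counts (-0.62 [-0.88 to -0.35]), the 1 gene past 1.5-fold downwards. NDUFC1 followed with 305 and 226 counts (-0.41 [-0.67 to -0.16]), and COX7C with 1586 and 1232 (-0.34 [-0.45 to -0.24]). None of these extremes is a core subunit, and COX7A2L is counted below with the accessory ones.

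In PANC-1 cells, 3 of 66 genes passed 2-fold, 2 upwards and 1 downwards, with 9.12% of the 15159 genes tested past it, 4.95% upwards and 4.18% downwards. NDUFA13 and the read-through transcript NDUFC2-KCTD14 were the upward ones and COX7A2L the downward one. NDUFC2-KCTD14 met the FPKM limit only in irradiated PANC-1 cells (0.186 before and 2.24 after), so that limit fixed its direction. Without the read-through and antisense transcripts 2 of 64 passed, 1 in each direction. Among genes with an FPKM of at least 5, 2 of 63 passed, beside 363 of all 9889 genes at that level. At 1.5-fold 8 of 66 passed, 2 upwards and 6 downwards, with 21.6% of all genes past it, 11.3% upwards and 10.3% downwards. The median was -0.003 (-0.02 over all genes), with 33 genes on each side of 0 and 48.3% of all genes above it, and its sign depended on the scaling (0.09 and 41 genes above 0 with scaling by total counts).

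NDUFA13 went from 892 to 1858 counts in PANC-1 cells, a log2 change of 1.19 [1.07 to 1.31] or 2.28-fold. The gene lies at chr19:19515736-19529054 on the + strand and overlaps AC011448.1 and YJEFN3 on that strand. These had 104 and 110 counts and 123 and 130 counts in the PANC-1 libraries, far fewer than NDUFA13. In SW1990 cells they went from 356 to 234 and from 167 to 58, the opposite direction to NDUFA13. How reads were split among these overlapping genes, and its part in the NDUFA13 change in SW1990 cells, was not tested. On the FPKM scale NDUFA13 went from 45.7 to 90.8, a log2 change of 0.99 and just under 2-fold.

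NDUFC2-KCTD14 had 0, 0, 3 and 31 counts, so its change starts from the floor of 3 counts. It shares exons with NDUFC2, which had 336, 282, 1199 and 1350 counts, and the split of reads between the pair is uncertain. COX7A2L went from 2402 to 940 counts in PANC-1 cells (-1.22 [-1.33 to -1.11]), the opposite of its direction in SW1990 cells. On the FPKM scale its change was smaller, from 47.8 to 31.3. NDUFA12, an accessory complex I subunit, went from 946 to 435 counts (-0.99 [-1.16 to -0.83]), just under the 2-fold limit. NDUFA6 had 837 and 424 counts (-0.85 [-1.02 to -0.68]), with an antisense transcript on the other strand and unknown strand setting in the counting. UQCR10, COX7B and NDUFA4L2 were the other genes past 1.5-fold downwards, at -0.79, -0.78 and -0.70, the last from 41 and 23 counts with an interval that includes 0 [-1.51 to 0.07]. After NDUFA13, the largest increases on counts among genes with an FPKM of at least 5 were those of 2 core subunits of complex I. These were NDUFS8 (1159 and 1465 counts, 0.47 [0.36 to 0.58]) and NDUFS3 (778 and 951 counts, 0.42 [0.28 to 0.56]). On FPKM values NDUFS8 changed by 0.90, and other genes, such as NDUFC2 (0.84, against 0.30 on counts), changed by more than NDUFS3 (0.42).

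**Figure D3:**
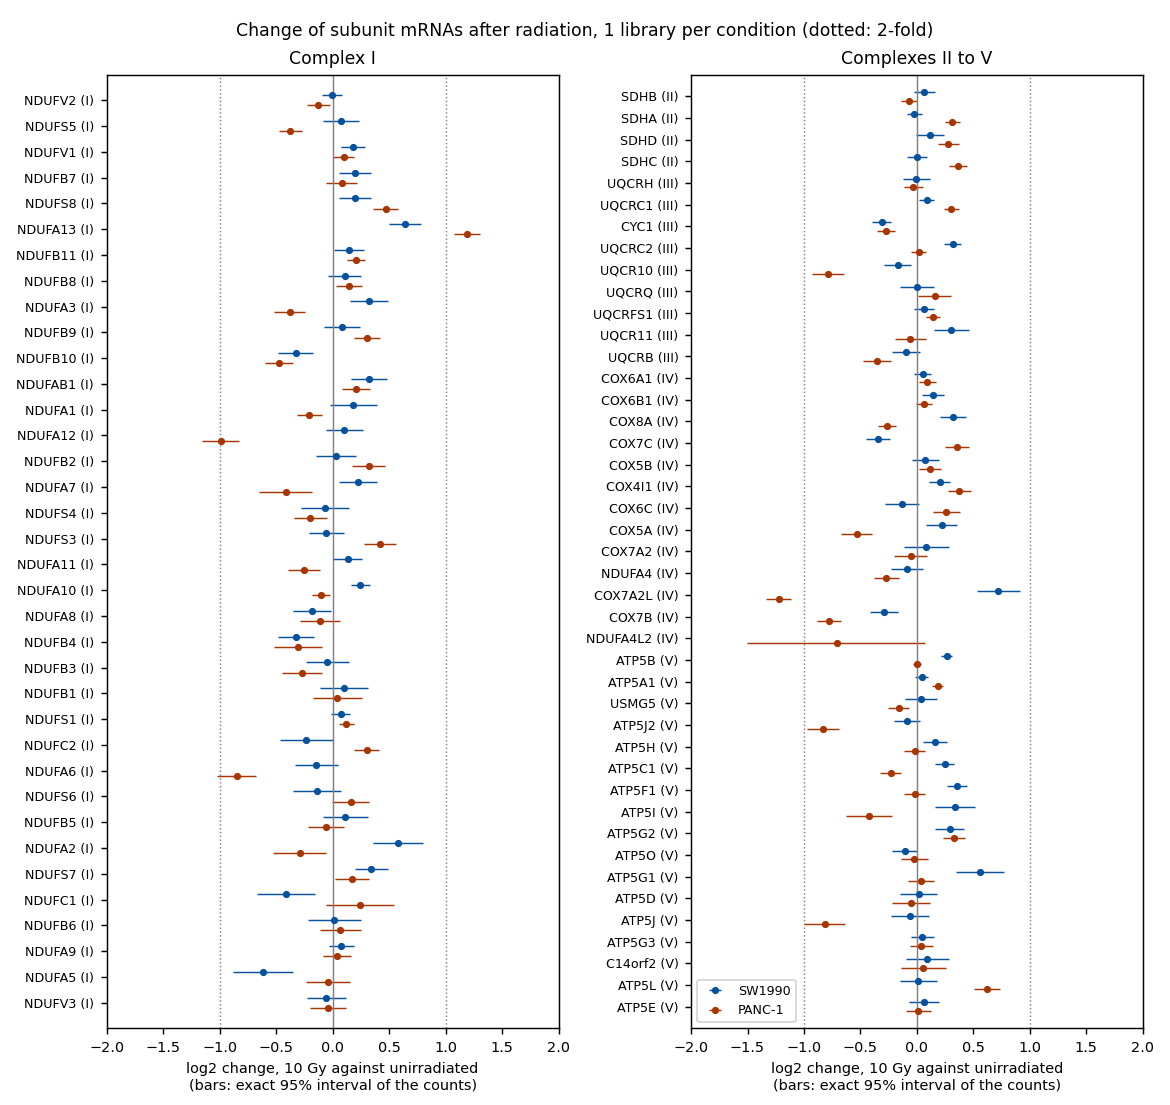
Log2 change of TMM-scaled counts after 10 Gy for the coding subunits in SW1990 (blue) and PANC-1 cells (brown), from 1 library per condition, with exact 95% intervals of the counts and dotted lines at 2-fold. NDUFA13 at 1.19 and COX7A2L at -1.22, both in PANC-1 cells, lie outside the dotted lines, and NDUFA12 reaches -0.99.

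The subunits were then grouped by role. Of 15 core subunits, 12 were above 0 in irradiated PANC-1 cells (median 0.14), and the SW1990 pair had 10 above 0 (median 0.07, or -0.01 on FPKM values). Of the accessory subunits, 20 of 49 were above 0 in irradiated PANC-1 cells (median -0.06, or 27 and 0.03 with scaling by total counts), and the SW1990 pair had 30 of 48 above 0 (median 0.08). The core subunits did not pass 1.5-fold in either line, while 7 of 49 accessory subunits did after radiation of PANC-1 cells and 3 of 48 after radiation of SW1990 cells, where 21.6% and 20.5% of all genes passed it. No test of the difference between the roles was made. Within the core, NDUFS1, the largest subunit of complex I, had 2319, 2401, 4145 and 4123 counts, which differed little with radiation in either line. NDUFV1, which binds NADH, had 1264, 1412, 2044 and 1998 counts. The largest of these changes in log2 counts was 0.18, for NDUFV1 in SW1990 cells, although on the FPKM scale NDUFS1 changed by -0.41 in SW1990 cells and the changes of NDUFV1 turned to -0.04 and -0.07.

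In complex II, SDHA, the flavoprotein that oxidises succinate, had 4110, 3988, 3491 and 3964 counts, with changes of -0.02 [-0.09 to 0.04] and 0.31 [0.25 to 0.38]. SDHB had 1748, 1804, 3466 and 3012 counts and changes of 0.07 and -0.07. SDHC and SDHD, the membrane anchors, had changes of 0.00 and 0.11 in SW1990 and 0.37 and 0.28 in PANC-1 cells. The complex II median was thus 0.03 for SW1990 (-0.02 with total-count scaling) and 0.30 for PANC-1 cells, the latter the highest of the 5 complexes. In complex III, CYC1 (cytochrome c1) was lower after radiation in both lines, with 2491, 1976, 3155 and 2385 counts and changes of -0.31 [-0.40 to -0.23] and -0.27 [-0.35 to -0.20]. UQCRC1, a core protein, had 3569, 3733, 3425 and 3860 counts (0.09 and 0.30), and UQCRFS1, the Rieske iron-sulfur protein, 2197, 2262, 4421 and 4460 (0.06 and 0.14). The complex III medians were 0.00 and -0.03, or 0.02 and 0.10 on FPKM values.

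In complex IV, COX4I1 had 1789, 2028, 1430 and 1696 counts, higher after radiation in both lines (0.20 and 0.38). COX5A had 844, 968, 1148 and 725 counts, with changes of 0.22 [0.08 to 0.35] and -0.53 [-0.67 to -0.40] in opposite directions. COX7C also moved in opposite directions, but the other way round, at -0.34 and 0.35. The complex IV medians were 0.08 and -0.06, or 0.01 and 0.05 on FPKM values, so the sign in PANC-1 cells turned for complexes III and IV. Of the ATP synthase, ATP5A1, the alpha subunit, had 4792, 4870, 6882 and 7138 counts (0.04 and 0.18, or -0.09 and -0.04 on FPKM values), and ATP5B 6770, 8012, 10854 and 9918 (0.26 and 0.00). None of the 18 ATP synthase rows passed 2-fold in SW1990 cells (9.53% of all genes did), nor did any of the 17 tested in PANC-1 cells (9.12%). At 1.5-fold 1 of 18 passed in SW1990 cells (20.5% of all genes), the read-through transcript ATP5J2-PTCD1, with 39 and 66 counts (0.78, or 1.06 on FPKM values and thus past 2-fold there). Past 1.5-fold in PANC-1 cells were 3 of 17 (17.6%, against 21.6% of all genes), ATP5L (0.62), ATP5J (-0.81) and ATP5J2 (-0.83). These rows were named after their values were seen.

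Over both lines, no subunit passed the test of radiation. Of the 67 genes, 0 reached an adjusted p under 0.05 in edgeR's quasi-likelihood fit, which held a term for the line (0% of 17662 genes did), and 3 had an unadjusted p under 0.05, against 5.04% of all genes. NDUFA13 had the lowest p of the 3 (log2 change 0.93, SE 0.20, unadjusted p = 0.00525, adjusted p = 0.906 in edgeR), and was higher in both lines. COX7B was lower in both (-0.53, SE 0.18, unadjusted p = 0.0335 in edgeR). The third gene was NDUFC2-KCTD14, which met the FPKM limit only in irradiated PANC-1 cells. DESeq2 called 1 of the 67, which was NDUFA13, and 299 of all genes. The fit leaves 1 residual degree of freedom, and the p-values measure only the spread between these 4 libraries.

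Directions were then set side by side. Of 64 genes tested in both lines, 24 (37.5%) were above 0 in both, 16 below 0 in both, 16 above 0 in SW1990 cells only and 8 above 0 in PANC-1 cells only. Over all 13228 genes, 27.5% were above 0 in both, 27% below 0 in both, 25.6% above 0 in SW1990 only and 19.9% in PANC-1 only. Over 63 coding subunits, Pearson's r of the log2 changes was 0.05 and Spearman's rho 0.03, given as a description of genes that share libraries.

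**Figure D4:**
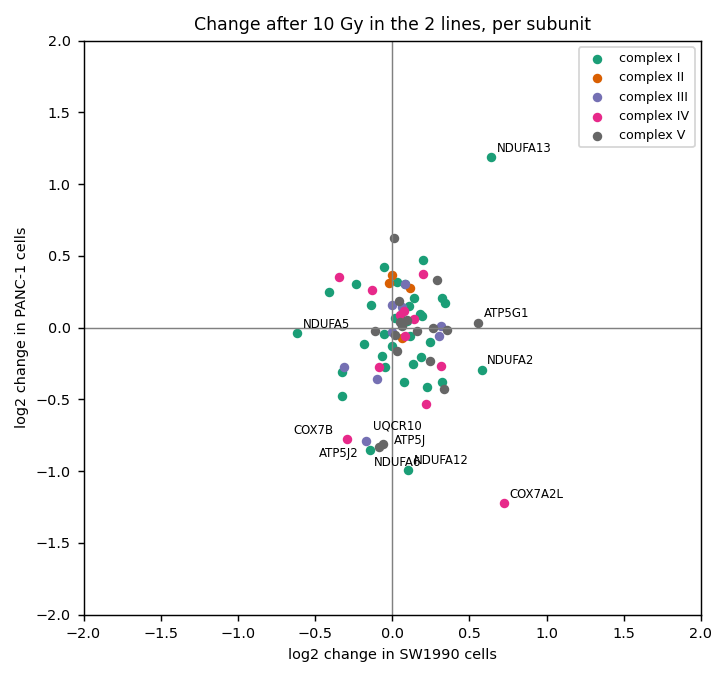
Log2 change of the coding subunits after 10 Gy in SW1990 (x axis) against PANC-1 cells (y axis), with 1 point per gene coloured by complex. NDUFA13 lies at 0.64 and 1.19, and COX7A2L at 0.72 and -1.22.

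The lines were compared in the same fit. Of the 67 genes, 26 differed between SW1990 and PANC-1 cells at an adjusted p under 0.05 (edgeR, treatment as a covariate), with 41.6% of all 17662 genes called, so the share of 38.8% was near that of all genes. Of the 26, 24 were lower in SW1990 cells and 2 were higher, while over all genes 21.3% were lower and 20.3% higher. The median log2 difference, SW1990 minus PANC-1, was -0.35 for the 67 genes and -0.01 for all genes, with 43 below 0 and 24 above. The scaling moved these values, with 6 higher, 15 lower and a median of -0.20 (0.14 over all genes) when scaled by total counts, and 8 higher, 19 lower and -0.22 (0.12 over all genes) in limma-trend on FPKM values. In 37 of the 67 genes both SW1990 libraries lay below both PANC-1 libraries (38.1% of all genes) and in 15 both lay above (37.1%). Each line was represented by 1 unirradiated and 1 irradiated library, so that the spread in this fit is that between treatments after their shared effect is removed. The fits that leave out 1 library held no term for treatment, so that line and treatment are partly mixed in them. Calls kept or lost there thus follow from the dropped term as well as from the missing library. The 26 calls became 13 without the unirradiated SW1990 library, 15 without the irradiated SW1990 library, 15 without the unirradiated PANC-1 library and 11 without the irradiated PANC-1 library.

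Complex I, with 37 coding subunits, held 13 of the lower subunits and both higher ones, beside 21.3% of all genes lower and 20.3% higher. NDUFC2, a membrane-arm subunit at chr11:78068304-78080219, had 336, 282, 1199 and 1350 counts, 3.82-fold more in PANC-1 cells (log2 difference -1.93, SE 0.21, adjusted p = 0.00249). The groups did not overlap, nor did its FPKM values of 9.91, 7.02, 24.3 and 43.6. NDUFA1, needed for complex I assembly, had 368, 412, 1504 and 1191 counts (-1.67, SE 0.18, adjusted p = 0.00267). It lies on the X chromosome, where RNF113A on the opposite strand had 156, 160, 502 and 374 counts and thus was higher in the same libraries, and its part in the NDUFA1 counts was not tested. NDUFB11 followed at -1.27 (SE 0.14) and NDUFS5 at -1.20 (SE 0.18). Among the nuclear core subunits of complex I, NDUFS1 (-0.70), NDUFS8 (-0.55) and NDUFV1 (-0.48) were lower in SW1990 cells. NDUFS1 kept the call in 2 of the 4 fits that leave out a library, and NDUFS8 and NDUFV1 in 0 of 4.

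The higher ones in SW1990 cells were NDUFA7 and NDUFB4, both accessory subunits. NDUFA7 had 558, 643, 365 and 250 counts (1.10, SE 0.24, adjusted p = 0.0195), 2.14-fold more in SW1990 cells. NDUFA7 meets RPS28 on the opposite strand, which had 3722, 3949, 3558 and 3866 counts and did not follow it. NDUFB4 had 746, 587, 434 and 320 counts (0.94, SE 0.18, adjusted p = 0.0131 in edgeR), with both SW1990 values above both PANC-1 values. Both genes lost the call when some libraries were left out. Over the alternative fits the difference ran from 0.94 to 1.32 for NDUFA7 and from 0.77 to 1.12 for NDUFB4.

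In complex II, SDHB (-0.75, SE 0.14) and SDHD (-0.67, SE 0.15) were lower in SW1990 cells, while SDHA was at 0.24 (adjusted p = 0.274). SDHB kept the call in all 4 fits that leave out a library and SDHD in 1 of 4. UQCRH (-0.95, SE 0.14) and UQCRFS1 (-0.88, SE 0.14) were the 2 of 9 complex III subunits that were lower. UQCRFS1P1, a pseudogene of UQCRFS1, had 62, 83, 172 and 150 counts against 2197, 2262, 4421 and 4460 of UQCRFS1. In complex IV 6 of 13 (46.2%, against 21.3% of all genes) were lower and 0 higher, namely COX5B (-0.60), NDUFA4 (-0.67), COX7A2 (-0.75), COX6B1 (-0.82), COX8A (-0.84) and NDUFA4L2 (-2.32, SE 0.68, adjusted p = 0.0472), the last from few counts. Of these, COX6B1 kept the call in all 4 fits that leave out a library, NDUFA4, COX8A and NDUFA4L2 in 1 of 4, and COX5B and COX7A2 in 0 of 4. NDUFA4L2 reached an FPKM of 1 only in PANC-1 cells (0.439, 0.0905, 1.29 and 1.07). The filter itself thus favoured its direction, and its part in the 6 of 13 says little. COX7A2L had the next largest difference, with 371, 603, 2402 and 940 counts (-1.55, SE 0.49), but its adjusted p in edgeR was 0.0562. NDUFC2-KCTD14 was also among the 24 lower genes, from 0 counts in both SW1990 libraries. It reached an FPKM of 1 only in irradiated PANC-1 cells (0, 0, 0.186 and 2.24), so the filter itself favoured this direction. Of the 64 coding subunits 23 were lower and 2 higher.

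**Figure D5:**
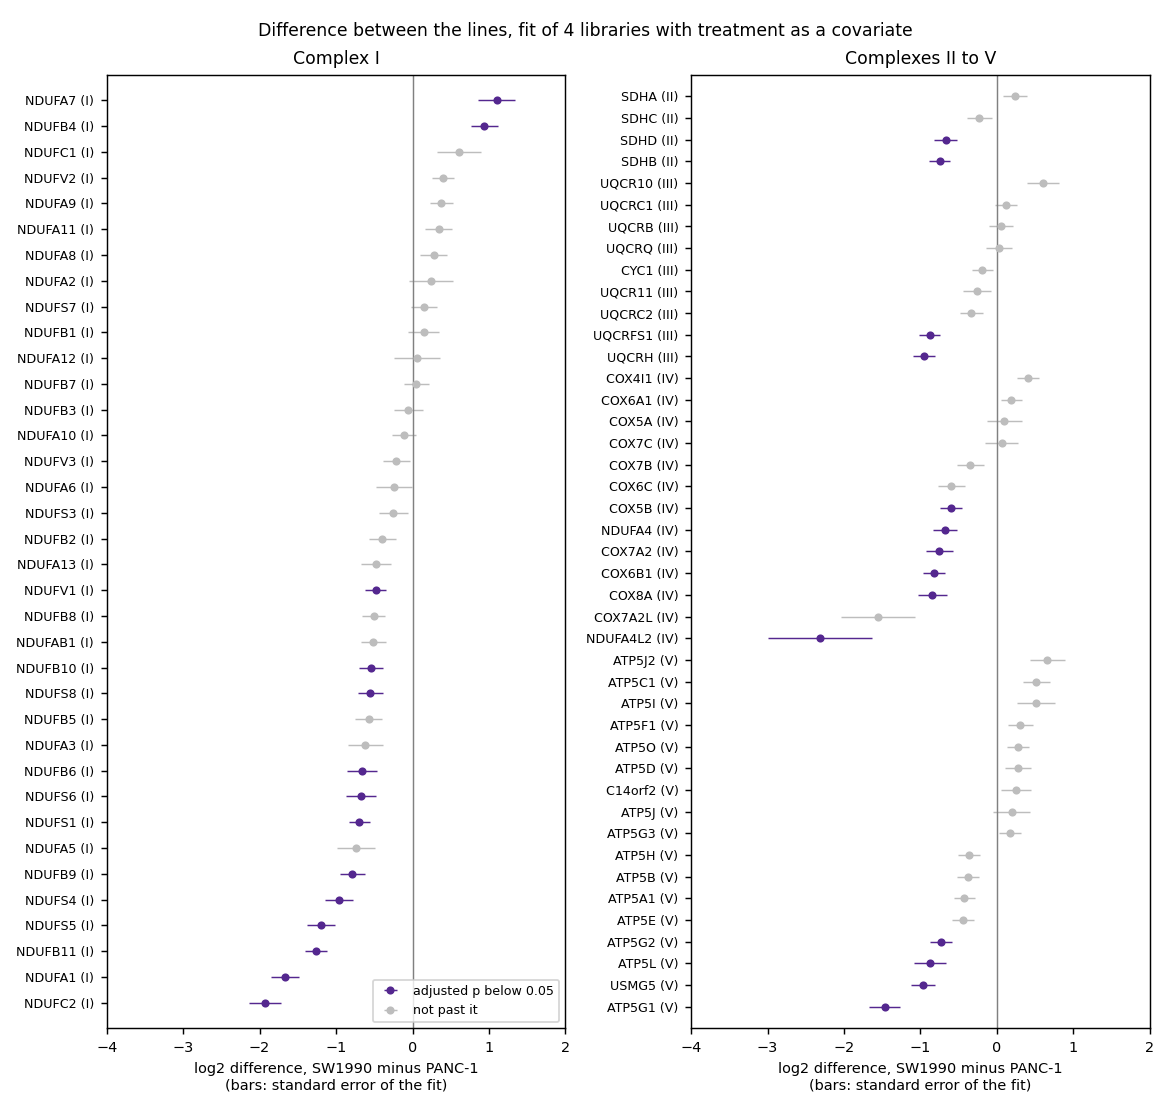
Log2 difference between SW1990 and PANC-1 cells for the coding subunits, with the standard error of the edgeR fit of 4 libraries, and purple points where the adjusted p was below 0.05. NDUFA7 (1.10) and NDUFB4 (0.94) are the purple points above 0, and NDUFC2 (-1.93) and NDUFA1 (-1.67) the lowest of complex I.

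In the ATP synthase 4 of 18 rows were lower in SW1990 cells (22.2%, near the 21.3% of all genes) and 0 higher, and the median was 0.18. ATP5G1, ATP5G2 and ATP5G3 (now ATP5MC1, ATP5MC2 and ATP5MC3) encode the same mature subunit c of the rotor ring. ATP5G1 had 322, 467, 1198 and 1122 counts (-1.47, SE 0.20, adjusted p = 0.00500). ATP5G2 had 891, 1073, 1636 and 1878 counts (-0.73, SE 0.15, adjusted p = 0.0151). ATP5G3 had 1568, 1599, 1568 and 1473 counts (0.17, SE 0.14, adjusted p = 0.376), so the lines differed in the first 2 by the test, while the third did not pass it. Without the irradiated or the unirradiated PANC-1 library ATP5G1 lost the call (highest adjusted p 0.0521 in edgeR), and ATP5G2 kept it only without the irradiated SW1990 library (highest 0.136). The other lower rows were ATP5L (-0.87), which kept the call in 1 of the 4 fits that leave out a library, and USMG5 (-0.96), which kept it in all 4. ATP5A1 and ATP5B were at -0.42 (adjusted p = 0.0595) and -0.38 (adjusted p = 0.0895).

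Genes that work with the subunits were compared by lists, beside 21.3% of all genes lower and 20.3% higher in SW1990 cells by the same test. Of 54 assembly factors, which build the complexes without being part of them, 4 were lower in SW1990 cells and 2 higher, with a median of 0.04. TMEM261, a complex I assembly factor, was one of the higher ones (836, 967, 216 and 184 counts, 2.28), and was chosen after its values were seen. Of 10 other respiratory proteins 4 were lower and 1 higher, among them cytochrome c (CYCS, 2163, 2565, 4075 and 3547 counts, -0.58, SE 0.15). Of 16 regulators of mitochondrial biogenesis, TFAM, which packs and transcribes mitochondrial DNA, was lower (1236, 1095, 2111 and 1901 counts, -0.67, SE 0.15) and the factor YY1 was higher (0.49), both named after their values were seen. Of 13 enzymes of the tricarboxylic acid cycle 4 were lower and 3 higher. OGDH, a subunit of the oxoglutarate dehydrogenase complex, was lower, with 2020, 2602, 7144 and 6858 counts (-1.50, SE 0.15). The mitochondrial ribosomal proteins had 14 lower and 9 higher of 78 (median 0.19), and the cytosolic ones 7 lower and 34 higher of 79 (median 0.42).

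The mitochondrially encoded subunits had a median difference of the opposite sign to that of the nuclear ones, with 4 of 13 higher and 1 lower in SW1990 cells and a median of 0.62. After radiation, all 13 were above 0 in SW1990 cells (median 0.32) and 11 of 13 below 0 in PANC-1 cells (median -0.25, and 10 of 13 with total-count scaling or FPKM values), whereas the medians of the 67 nuclear genes stayed at 0.07 and -0.003. MT-ATP6, a subunit of the ATP synthase, was the 1 gene of the 13 past 2-fold in each line, with 17230, 74171, 17478 and 42514 counts (2.13 and 1.41). MT-ATP8, which overlaps it in the mitochondrial genome, had 6412, 7474, 5125 and 3386 counts (0.24 and -0.47) and did not follow. MTATP6P1, a pseudogene copy of MT-ATP6 in the nuclear genome, had 9421, 11869, 8385 and 7724 counts. The sum of MT-ATP6 and MTATP6P1 changed by 1.71 and 1.09. How reads were shared among these and neighbouring mitochondrial genes was not tested. The other named gene of this list, MT-ND6, had 1942, 1996, 3697 and 4329 counts (0.06 and 0.36).

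Among the other lists, the medians after radiation in SW1990 and PANC-1 cells were 0.04 and -0.00 for the 54 assembly factors, with 0.02 and -0.02 over all genes. Of these, the 4 complex II factors were at 0.38 and 0.32, and the 6 complex III factors were at 0.14 and 0.14 (-0.13 and 0.04 on FPKM values). The medians were 0.05 and -0.05 for the tricarboxylic acid cycle, -0.02 and -0.02 for the regulators and 0.07 and -0.08 for the other respiratory proteins. The mitochondrial ribosomal proteins were at -0.06 and -0.08, and the cytosolic ones at -0.04 and -0.17, with 54 of 79 below 0 in PANC-1 cells. Citrate synthase (CS), which starts the cycle, went from 4826 to 2087 counts in SW1990 cells (-1.19) and from 1746 to 5175 in PANC-1 cells (1.70). On FPKM values its changes were smaller, at -0.62 and 1.27. Of the complex II assembly factors, SDHAF4 had 68, 115, 99 and 147 counts (0.78 and 0.70) and SDHAF2 had 376, 549, 517 and 565 (0.57 and 0.26), both above 0 in each line. Of the complex IV factors, COX20 had 1361, 1033, 1012 and 596 counts (-0.38 and -0.63), below 0 in each line. COX11 had 241, 194, 289 and 138 (-0.29 and -0.94), but on FPKM values its change in SW1990 cells was 0.10. ECSIT (-0.68 and -0.24) and NDUFAF8 (0.33 and 0.54) had the largest mean change over both lines among the complex I factors, although within PANC-1 cells NDUFAF1 changed by more (0.74). Among those of complex III these were BCS1L (0.39 and 0.15) and UQCC1 (0.15 and 0.23), the latter at -0.27 and -0.14 on FPKM values, the opposite direction. ATPAF1 (-0.12 and -0.35, or 0.05 and -0.41 on FPKM values) and ATPAF2 (0.06 and 0.37) made up those of complex V. ESRRA, a nuclear receptor that drives mitochondrial genes, had 564, 490, 682 and 1105 counts (-0.18 and 0.83), and TFB1M 293, 220, 373 and 262 (-0.39 and -0.38). DHODH (-0.59 and -0.21) and HIGD2A (-0.06 and -0.44) had the largest mean changes of the other respiratory proteins.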

How the data were processed

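RNA of 4 libraries was sequenced. According to the submitters' processing notes and the study's methods, the authors used CASAVA 1.8, FastQC 0.11.2, Trimmomatic 0.36, HISAT2 2.0 (GRCh38), StringTie 1.3.3b and DESeq2 1.12.4. The authors deposited read counts per gene, not normalized, and FPKM values, scaled to length and library size. The tool and strand setting of the counts, and any duplicate removal, were not given in the sources used here. The kit was an mRNA kit, while the labels say rRNA depleted.

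The 58174 rows with an Ensembl identifier were analysed. The other rows name no gene and held 0.453% to 0.635% of counts. Library sizes were scaled by TMM (factors 1.08, 1.03, 0.919 and 0.978). In each line, genes that reached an FPKM of 1 in 1 of its 2 libraries were compared without a test, as the library pair is unreplicated, a value of 0 being set to 0.01 and a fold above 2 counted. Both lines were fitted together with edgeR 4.0.16 (R 4.3.3, glmQLFit and glmQLFTest, terms for line and treatment, Benjamini-Hochberg over 17662 genes). The scripts were tested on counts simulated with less spread than these libraries showed, and only the size of the fold change had to match. How often calls are missed or false in data like these was thus not shown. DESeq2 1.42.0 and limma 3.58.1 were alternatives. The common coefficient of variation was 0.213. Nothing in the labels says that the libraries came from separate cultures.

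Named were genes past 2-fold, the 3 largest rises and falls per line (FPKM of at least 5), the 4 largest called differences between lines in each direction, core subunits, paralogue sets, the highest of each complex, and the 2 list genes with the largest mean change. The genes and lists were chosen with earlier results of these data known. All 67 identifiers were found in GENCODE 29, 65 with the same coordinates. In 11 of them another expressed gene overlaps on the same strand and in 21 on the opposite strand. The letters searched in promoters were chosen with the results known, and those of NRF1 and YY1 were shortened by 1 base after a search with longer letters had been seen. A few single-gene results are not reported here or drawn, although the genes are part of the counts and sums.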

Additional observations from a re-analysis of the deposited data

Results flagged for a closer look

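Genes that moved past 1.5-fold in opposite directions after radiation in the 2 lines were singled out. Each line had 1 library per condition, and the difference between the lines was not tested. Among the subunits this was COX7A2L, with log2 changes of 0.721 (SW1990) and -1.223 (PANC-1). Among the comparison lists it was the citrate synthase gene CS, at -1.189 and 1.698 (-0.62 and 1.27 on FPKM values). The complex III assembly factors UQCC2 (-1.055 in SW1990 and 0.861 in PANC-1 cells) and LYRM7 (0.969 and -1.036) were placed in the same way, with 1157, 549, 578 and 959 counts of UQCC2 and 243, 469, 422 and 188 of LYRM7 in the order used above. The complex IV assembly factor CMC1 was at -0.623 and 0.587, but on FPKM values at -0.52 and 0.23, under 1.5-fold in both lines.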

How the results depend on the processing

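For radiation in SW1990 cells, the 0 subunits past 2-fold became 1 (NDUFA4L2) without the FPKM filter and 3 at 1.5-fold. The 1499 of all genes became 640 on log2(FPKM + 1), 7924 without the filter, 344 at an FPKM of at least 5, 3231 at 1.5-fold and 659 with a q-value under 0.001 in edgeR's exactTest at dispersion 0. In PANC-1 cells the 3 genes past 2-fold, 2 of them coding subunits, became 8 at 1.5-fold. On FPKM values and on log2(FPKM + 1) 1 remained, the read-through transcript NDUFC2-KCTD14, so NDUFA13 and COX7A2L did not pass there. The 1383 of all genes became 596 on log2(FPKM + 1), 7915 without the filter, 363 at an FPKM of at least 5, 3278 at 1.5-fold and 723 with a q-value under 0.001 in a conditional binomial test, chosen after seeing the data because exactTest stopped. Scaling by total counts changed the split of all genes in SW1990 cells from 771 higher and 728 lower to 666 and 843, and in PANC-1 cells from 750 and 633 to 888 and 550. The subunit median in PANC-1 cells turned from -0.003 to 0.087 under that scaling and to 0.065 on FPKM values. Over both lines DESeq2 called 1 subunit and 299 genes, and limma-trend on log2(FPKM + 1) called 1 gene and 0 subunits.

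For SW1990 against PANC-1 cells, the median over the subunits went from -0.345 to -0.199 with total-count scaling, added after seeing the data, and to -0.216 with limma-trend, as the median of all genes moved to 0.140 and 0.125. The subunits stayed 0.339 and 0.341 below it, and the split became 6 higher and 15 lower, and 8 and 19. DESeq2 called 36 subunits (6 higher, 30 lower). The fits that leave out 1 library held no term for treatment. Leaving out each library in turn gave 11 to 15 subunits and 4706 to 5736 genes, with a lone library assumed to vary like the other line. Called in all 8 fits and without each of the 4 libraries were 8 subunits (NDUFC2, NDUFA1, NDUFB11, NDUFS5, COX6B1, SDHB, UQCRFS1 and UQCRH), with an adjusted p of at most 0.0455. NDUFA7 and NDUFB4 were called in all 8 fits, but lost the call without some libraries (highest adjusted p 0.0585 and 0.0899). Each group has 1 library, so no replicate numbers pair samples, and the fit over both lines, with its term for the line, already compares irradiated with unirradiated cells within each line. Intervals cover counting error only, and counts of fewer than 3 cannot be told from 0.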
